A study of Mus musculus with 6 samples.

Results

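The genes described here code for 3 groups of enzymes that chemically modify steroids, bile acids, vitamins, fatty acids and foreign compounds: the cytochrome P450 genes (Cyp), the UDP-glycosyltransferase genes (Ugt) and the sulfotransferase genes (Sult). They were chosen by symbol, as every gene whose symbol consists of Cyp, Ugt or Sult with a family number, a subfamily letter or letters and a gene number, apart from Cyp19a1 and Cyp26b1. A Ugt symbol could also lack the gene number, as in Ugt8a, or end in a further letter, as in Ugt1a6a. The rule was set with earlier results of these data known. The rule found 133 of the 34745 genes in the table, of which 92 were Cyp, 22 were Ugt and 19 were Sult genes.

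RNA was sequenced from the prostates of 6 male C57BL/6 mice that were 6 to 8 weeks old when the experiment began. The 3 mice of the T + E2 group carried slow-release pellets of testosterone and estradiol under the skin for 12 weeks, with a fresh pellet each month, as a model of benign prostatic hyperplasia. The 3 mice of the CON group received the skin incision and suture without a pellet. Both hormones were given together, so the action of one cannot be told from that of the other. The RNA came from prostate tissue rather than sorted cells, and the lobes taken are not stated in the sources used here. Reads counted on genes totalled 14816146 to 16555549 per mouse, and 3 counts were worth 0.183 to 0.208 CPM (the count relative to the library total, scaled between libraries by TMM).

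Cytochrome P450 enzymes carry a haem group and insert oxygen into their substrates with electrons that most of them receive from the P450 reductase Por. UDP-glucuronosyltransferases join glucuronic acid, and sulfotransferases join sulfate, to a hydroxyl or similar group, which makes steroids and drugs water-soluble and in most cases inactive. All 3 groups are best known from the liver, while in steroid-responsive tissues such as the prostate some members lower the local amount of active androgen or estrogen.

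Most of these genes were silent or close to silent in the mouse prostate. Of the 133 genes, 60 had no count in any mouse, 34 were detected but had too few counts to be tested, and 39 were tested (27 Cyp, 6 Ugt and 6 Sult). Compared with the CON group, 8 of the 39 were upregulated in the T + E2 group, with an adjusted p under 0.05 and a log2 fold change over 1. They were the glucuronosyltransferase Ugt2b35, the sulfotransferases Sult1e1, Sult1c2 and Sult5a1, and the P450 genes Cyp3a57, Cyp2j13, Cyp4v3 and Cyp2b19. A further P450 gene, Cyp4x1, was downregulated by the same thresholds in the opposite direction. The upregulated genes made up 20.5% of the tested members, against 4.27% of all 15580 tested genes, and the downregulated gene 2.56%, against 3.38%. By adjusted p alone, 10 members were higher and 1 was lower in the T + E2 group, against 10.4% and 9.25% of all tested genes. The CPM values of the groups did not overlap for 12 members that were higher and 4 that were lower, against 20% and 20.7% of all tested genes. The median log2 fold change of the tested members was 0.27, and 27 of them had a positive value, while the median of all tested genes was -0.002. In whole tissue a change in the number of cells of a type and a change in RNA per cell cannot be told apart.

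**Figure D1:**
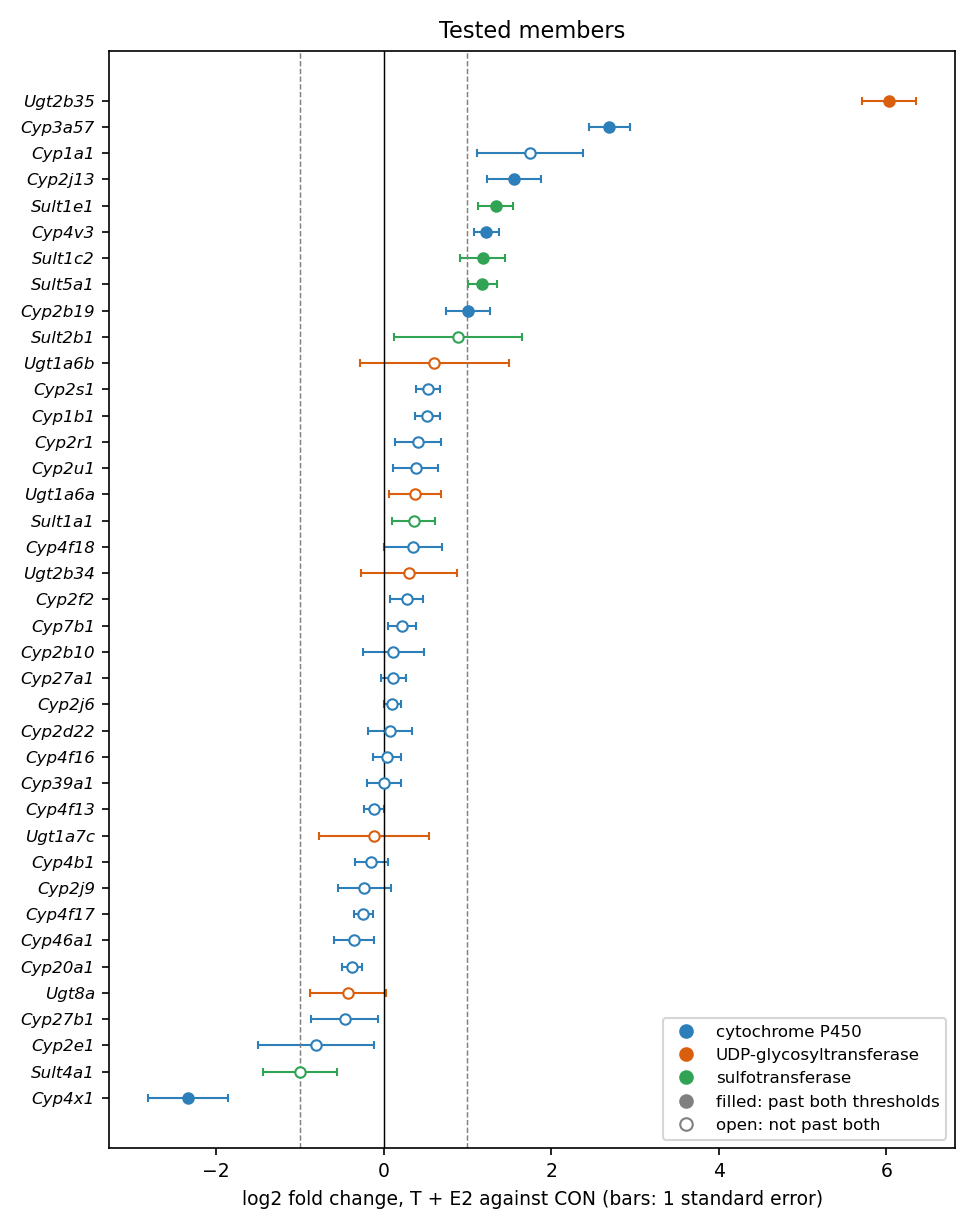
Log2 fold change of each of the 39 tested members, T + E2 against CON (horizontal axis, 3 mice a group, bars of 1 standard error), sorted by size and coloured by enzyme group. Filled points passed both thresholds, dashed lines mark a log2 fold change of 1 and -1, and Ugt2b35 at 6.04 stands far to the right of all others.

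Not every tested member entered on equal terms. The filter on low counts was met in both groups by 31 of the 39 members, and through the T + E2 group alone by Ugt2b35, Cyp1a1 and Ugt1a6b. Cyp4x1 met it through the CON group alone. For the other 4, Cyp27b1, Sult2b1, Ugt2b34 and Ugt8a, neither group met it in all of its mice. A gene that passes such a filter only through the group in which it is high had to differ, so the shares above describe the tested members and not all 133.

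The libraries carried the markers of prostate epithelium (10 of 10 detected), whose summed level was 37219 to 50034 CPM in the CON mice and 11222 to 12350 CPM in the T + E2 mice, with Pbsn and Tgm4 downregulated. Urothelial markers (6 of 6) summed to 423 to 643 CPM in the CON and 1374 to 1703 CPM in the T + E2 group, with Upk1a and Upk2 upregulated and Upk3a without a count in any CON mouse. Most of this sum came from Upk1a, with means of 374 and 1306 CPM, and Upk1b, with 151 and 239 CPM. The group means of Upk2, Upk3a, Upk3b and Krt20 were at most 3.90 CPM. Liver markers (9 of 10, Serpina1a at 0) summed to 1.13 to 2.83 CPM against 5.61 to 8.16 CPM, and Alb had 0, 4 and 2 counts in the CON and 54, 85 and 28 counts in the T + E2 mice. Seminal vesicle markers (8 of 8) reached 10325 CPM in CON mouse 2 and 643 CPM in T + E2 mouse 2, and at most 4.11 CPM elsewhere. Fat markers (6 of 6) summed to 707 CPM in CON mouse 2 and to 74.4 to 194 CPM in the other mice. Markers of epididymis (6 of 10) summed to 31.6 to 37.9 CPM against 61.8 to 74.3 CPM, with Lcn5, Lcn8, Lcn9 and Cst8 at 0. Nearly all of that sum came from Adam28, with means of 24.8 and 28.7 CPM, and Defb42, with 8.74 and 39.2 CPM. Markers of steroid-producing cells (5 of 7) summed to 1.26 to 1.71 CPM against 1.67 to 2.19 CPM, with Hsd3b1 and Hsd3b6 at 0. For skeletal muscle (6 of 6) the sums were 71.7 to 279 CPM against 90.1 to 209 CPM, for smooth muscle (6 of 6) 4085 to 5074 CPM against 3580 to 3921 CPM, for macrophages (6 of 6) 132 to 171 CPM against 183 to 251 CPM, and for plasma cells (5 of 5) 405 to 433 CPM against 492 to 565 CPM. Most of the plasma cell sum came from Xbp1, with means of 321 and 351 CPM. None of the 4 tested plasma cell markers was upregulated. Without CON mouse 2 and T + E2 mouse 2, which hold the seminal vesicle transcripts, 5 members were upregulated and 1 was downregulated. Over all 15646 genes tested in that fit, 511 were upregulated and 298 were downregulated. Only 4 of the 8 upregulated members were left, with Cyp1a1 added and Cyp2b19, Cyp2j13, Sult1c2 and Sult1e1 lost. How far any of these tissues contributed to the enzyme values was not tested.

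The tested gene with the largest rise in each enzyme group was Cyp3a57, Ugt2b35 or Sult1e1, all 3 on chromosome 5, and the 250 bases before their annotated starts are given here for this reason (RefSeq sequence, build GRCm38.p6, written 5′ to 3′ on the strand of the gene). The Cyp3a57 promoter lies at chr5:145345019-145345268 on the plus strand, the Ugt2b35 promoter at chr5:87000610-87000859 on the plus strand and the Sult1e1 promoter at chr5:87591612-87591861 on the minus strand. The place of Sult1e1 rested on T + E2 mouse 2, without which its log2 fold change was 1.05, against 1.26 for Sult5a1. Capitals mark the core recognised by the androgen receptor (AGAACA, or TGTTCT on the other strand) and the core recognised by estrogen receptors and several other nuclear receptors (GGTCA, or TGACC on the other strand).
Cyp3a57 promoter: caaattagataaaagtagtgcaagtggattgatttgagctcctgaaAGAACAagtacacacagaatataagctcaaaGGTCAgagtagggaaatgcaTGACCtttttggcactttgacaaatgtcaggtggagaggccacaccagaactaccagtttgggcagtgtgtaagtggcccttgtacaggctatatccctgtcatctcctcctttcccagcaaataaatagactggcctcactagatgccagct
Ugt2b35 promoter: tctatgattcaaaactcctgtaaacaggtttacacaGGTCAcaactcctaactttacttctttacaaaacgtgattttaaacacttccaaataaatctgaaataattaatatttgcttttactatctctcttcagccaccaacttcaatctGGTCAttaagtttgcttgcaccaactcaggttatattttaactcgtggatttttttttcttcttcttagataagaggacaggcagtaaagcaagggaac
Sult1e1 promoter: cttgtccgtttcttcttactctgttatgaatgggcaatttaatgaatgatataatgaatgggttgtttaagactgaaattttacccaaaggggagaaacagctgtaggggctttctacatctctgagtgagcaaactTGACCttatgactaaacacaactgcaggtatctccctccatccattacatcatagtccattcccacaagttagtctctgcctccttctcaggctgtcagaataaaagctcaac
The Cyp3a57 promoter holds AGAACA at 1 place and GGTCA at 2 places, the Ugt2b35 promoter holds GGTCA at 2 places and the Sult1e1 promoter at 1. Of the 8 members past both thresholds that have a promoter entry, AGAACA was found in 3 (Cyp2b19, Cyp3a57 and Sult1c2), against 16.1% of 32851 promoters of the same length. GGTCA was found in 4 (Cyp2b19, Cyp3a57, Sult1e1 and Ugt2b35), against 35.2%. GCGTG, or CACGC on the other strand, the core bound by the aryl hydrocarbon receptor, was found in 2 (Cyp2j13 and Cyp4v3), against 28.2%. The member counts are of genes, while the shares are of promoter entries. The capital stretches do not overlap each other in the printed promoters, and a match is a description of the letters only.

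Among the glucuronosyltransferases the change was carried by a single gene. Ugt2b35 (ENSMUSG00000035811, chr5:87000860-87013275, plus strand) belongs to the UGT2B subfamily, which is known for conjugating steroid hormones. It had 6, 13 and 11 counts in the CON mice and 520, 960 and 521 counts in the T + E2 mice, or 0.397, 0.854 and 0.692 CPM against 36.0, 58.5 and 34.8 CPM. Every T + E2 mouse lay far above every CON mouse. The log2 fold change was 6.04 (standard error, SE, 0.32, adjusted p = 2.35e-05), a 65.6-fold rise, and it was 5.99 without both mouse 2 libraries. Per length of the gene, Ugt2b35 went from 0.195 ± 0.0705 FPKM to 12.7 ± 3.99 FPKM (SD, n = 3 in each group). The transcript of its neighbour Ugt2b36 is 91.9% identical over 669 aligned bases, and Ugt2b36 had no count in any mouse.

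The other tested Ugt genes did not pass the test. Ugt2b34, of the same subfamily, had 0.199, 1.25 and 0.503 CPM in the CON and 0.623, 0.913 and 0.868 CPM in the T + E2 mice, a log2 fold change of 0.30 (SE 0.57, adjusted p = 0.745). The Ugt1a genes, which act on bilirubin, estrogens and phenols, are 9 members that differ in their starts and share the exons of their ends, so that reads of the shared exons cannot be assigned to a single gene with certainty. Ugt1a6a, Ugt1a6b and Ugt1a7c were tested, with log2 fold changes of 0.37, 0.60 and -0.12 (adjusted p = 0.428, 0.67 and 0.92). Summed over all 9, the Ugt1a genes had 134, 240 and 158 counts in the CON mice and 151, 325 and 177 counts in the T + E2 mice. The groups overlapped, and the summed log2 fold change was 0.28 (SE 0.29, adjusted p = 0.531). Ugt1a1, the bilirubin enzyme, had 3, 10 and 2 counts in the CON and 2, 59 and 5 counts in the T + E2 mice, with the single high value in T + E2 mouse 2, the library that also held 99 counts of Upk3a and 120 of Krt20. Ugt1a10 had 7, 14 and 4 counts against 2, 12 and 4 counts.

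All 22 Ugt genes together summed to 10.7, 19.3 and 11.6 CPM in the CON mice and 47.7, 80.1 and 48.2 CPM in the T + E2 mice, a ratio of 4.24. The 10 Ugt2 genes alone summed to 0.596, 2.10 and 1.19 CPM against 36.7, 59.4 and 35.6 CPM, with almost all of the T + E2 sums from Ugt2b35, whereas the Ugt1 sum overlapped between the groups.

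**Figure D2:**
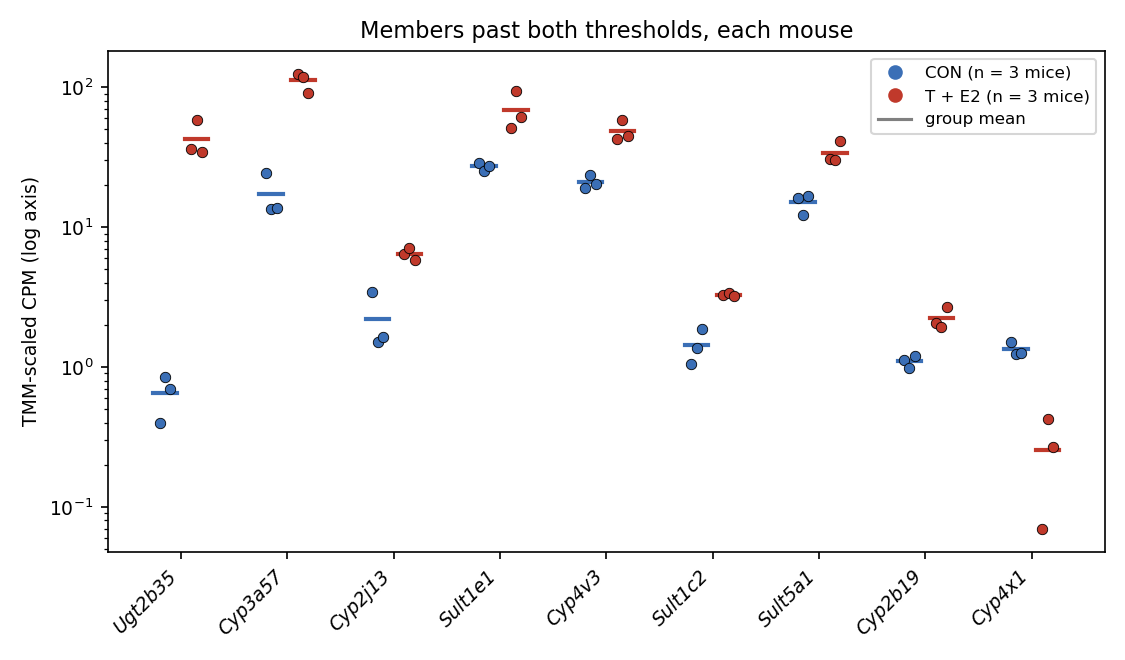
TMM-scaled CPM (vertical log axis) of the 9 members past both thresholds in each mouse, with 3 CON mice in blue, 3 T + E2 mice in red and a bar at each group mean. In none of the 9 do the groups overlap, and Cyp4x1 is the member in which the T + E2 mice are lower.

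Of the 6 tested sulfotransferases, 3 rose and none fell by both thresholds. Sult1e1 (ENSMUSG00000029272, chr5:87575969-87591594, minus strand), the estrogen sulfotransferase that inactivates estradiol and estrone, had 28.8, 25.4 and 27.5 CPM in the CON mice and 51.3, 94.0 and 61.2 CPM in the T + E2 mice. All T + E2 values were above the CON values, with T + E2 mouse 2 the highest. The log2 fold change was 1.34 (SE 0.21, adjusted p = 0.0038), a 2.53-fold rise, and 0.998 without both mouse 2 libraries (adjusted p = 0.0107), just under the size threshold. At 22.2 ± 1.36 FPKM in the CON and 54.8 ± 18.3 FPKM in the T + E2 group (SD, n = 3), Sult1e1 was the most abundant sulfotransferase of these prostates. It was already well expressed without added hormone, in contrast to Ugt2b35.

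Sult5a1 (ENSMUSG00000000739, chr8:123142847-123158315), a sulfotransferase with few known substrates, had 16.1, 12.2 and 16.9 CPM in the CON and 30.8, 30.3 and 41.4 CPM in the T + E2 mice. Its log2 fold change was 1.18 (SE 0.17, adjusted p = 0.0027), and 1.13 without both mouse 2 libraries. Sult1c2 (ENSMUSG00000023122, chr17:53829637-53846339), a sulfotransferase of small phenols, was far less abundant, with 1.06, 1.38 and 1.89 CPM against 3.25, 3.41 and 3.20 CPM. The groups did not overlap and the log2 fold change was 1.18 (SE 0.27, adjusted p = 0.0191), but without both mouse 2 libraries the adjusted p was 0.141 at a log2 fold change of 1.12.

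Sult1a1, which sulfates phenols and estrogens, had 10.9, 22.6 and 15.3 CPM in the CON and 17.2, 25.0 and 20.4 CPM in the T + E2 mice, overlapping values with a log2 fold change of 0.36 (SE 0.26, adjusted p = 0.356). Sult2b1, which sulfates cholesterol and other hydroxysteroids, had 12, 9 and 0 counts against 11, 10 and 18 counts and its log2 fold change of 0.89 did not pass the test (SE 0.77, adjusted p = 0.447). The 8 Sult2a genes, which in liver sulfate bile acids and dehydroepiandrosterone, had no count in any mouse. Sult4a1, a brain-type member added here after its values were seen, had 22.2, 24.7 and 20.1 CPM in the CON and 3.46, 16.3 and 13.7 CPM in the T + E2 mice. Its groups did not overlap, but T + E2 mouse 1 lay apart from the other 2, and the log2 fold change of -0.99 did not pass (SE 0.44, adjusted p = 0.152). All 19 Sult genes summed to 80.3, 87.4 and 82.3 CPM in the CON and 107, 170 and 142 CPM in the T + E2 mice, a ratio of 1.67 with no overlap. Of these, Sult1e1 had means of 27.2 and 68.8 CPM and Sult5a1 of 15.1 and 34.2 CPM. The sum of the Sult2 to Sult6 genes overlapped between the groups. The 92 Cyp genes summed to 461, 705 and 464 CPM against 617, 720 and 648 CPM, a ratio of 1.22 with overlap. The sum of all 133 members overlapped as well, at a ratio of 1.34.

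Among the tested P450 genes the largest rise was that of Cyp3a57 (ENSMUSG00000070419, chr5:145345279-145390926, plus strand), a member of the CYP3A subfamily, whose enzymes oxidise many drugs and hydroxylate testosterone. It had 24.6, 13.6 and 13.8 CPM in the CON mice and 125, 119 and 91.3 CPM in the T + E2 mice. The groups were widely separated, and CON mouse 1 was the highest of the controls. The log2 fold change was 2.69 (SE 0.25, adjusted p = 0.00031), a 6.47-fold rise, and 2.50 without both mouse 2 libraries (adjusted p = 0.00727). Per length, Cyp3a57 went from 7.90 ± 2.92 to 49.6 ± 6.97 FPKM (SD, n = 3 in each group) and was among the most abundant P450 transcripts of the T + E2 prostates.

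Its close relative Cyp3a25 was too low to be tested. Cyp3a25 had no count in any CON mouse and 8, 11 and 6 counts in the T + E2 mice. With the CON group set at a limit of 3 counts in all, the ratio was 8.40. That value makes no allowance for counting error in the T + E2 counts or for spread between mice. In the fit without a filter on low counts Cyp3a25 had an adjusted p of 0.00969. The transcripts of Cyp3a25 and Cyp3a57 are 92.6% identical over 1984 aligned bases, so reads may be shared between them. Cyp3a59, which is 93.1% identical to Cyp3a57, had no count, and Cyp3a11 and Cyp3a44, the well-known liver members, had none either. Cyp3a13, a further member with steroid substrates, had 3, 1 and 10 counts in the CON and 1, 4 and 2 counts in the T + E2 mice.

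Of the 10 tested genes of P450 family 2, not counting the vitamin D hydroxylase Cyp2r1, 2 rose. Cyp2j13 (ENSMUSG00000028571, chr4:96027534-96077546), of a subfamily known for epoxidising arachidonic acid, had 3.44, 1.51 and 1.63 CPM in the CON and 6.43, 7.12 and 5.87 CPM in the T + E2 mice, a log2 fold change of 1.56 (SE 0.32, adjusted p = 0.0134). Without both mouse 2 libraries it was 1.28 (adjusted p = 0.112). Cyp2b19 (ENSMUSG00000066704, chr7:26757142-26772630), a keratinocyte enzyme of arachidonic acid metabolism, had 1.13, 0.986 and 1.19 CPM against 2.08, 1.95 and 2.67 CPM. Its log2 fold change of 1.01 lay at the size threshold (SE 0.26, adjusted p = 0.0315), and the call was lost in each of the 6 fits that left out 1 mouse. The remaining upregulated P450 gene, Cyp4v3 (ENSMUSG00000079057, chr8:45269671-45333216), which hydroxylates fatty acids, had 19.01, 23.46 and 20.25 CPM in the CON and 42.89, 58.88 and 44.98 CPM in the T + E2 mice. Its log2 fold change was 1.23 (SE 0.15, adjusted p = 0.00114), and 1.16 without both mouse 2 libraries. An exon of Cyp4v3 overlaps that of Gm45753 on the same strand over 313 bases.

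Cyp4x1 (ENSMUSG00000047155, chr4:115106323-115134281, minus strand), a P450 known from the brain and from the oxidation of the endocannabinoid anandamide, was the only member past both thresholds in the other direction. It had 23, 19 and 20 counts in the CON mice and 1, 7 and 4 counts in the T + E2 mice, or 1.52, 1.25 and 1.26 CPM against 0.0692, 0.426 and 0.267 CPM. Its log2 fold change was -2.33 (SE 0.48, adjusted p = 0.0124), a 5.04-fold lower level, and -2.98 without both mouse 2 libraries (adjusted p = 0.0413). It was a low transcript even in the CON group, at 0.300 ± 0.0368 FPKM (SD, n = 3). Its exons overlap the opposite-strand gene Cyp4x1os over up to 450 bases, and no read was counted on Cyp4x1os in any mouse.

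Just inside the adjusted p threshold and below the size threshold stood Cyp2s1 and Cyp1b1. Cyp2s1, an epithelial P450, had 9.21, 9.99 and 9.43 CPM in the CON and 11.9, 13.8 and 15.8 CPM in the T + E2 mice, a log2 fold change of 0.53 (SE 0.14, adjusted p = 0.0349). Cyp1b1, which hydroxylates estradiol outside the liver, had 14.1, 14.3 and 13.4 CPM against 16.0, 20.3 and 23.6 CPM, a log2 fold change of 0.52 (SE 0.15, adjusted p = 0.0463). In 5 of the 6 fits that left out 1 mouse neither gene passed, with adjusted p values up to 0.0969 for Cyp2s1 and 0.126 for Cyp1b1, and without both mouse 2 libraries they were 0.144 and 0.196. The groups did not overlap in either gene, and Gm26707, which overlaps exons of Cyp2s1 on the opposite strand over 260 bases, had at most 2 counts in a mouse. Cyp1a1, a classical target of the aryl hydrocarbon receptor that also hydroxylates estradiol, had 1, 9 and 2 counts in the CON and 13, 17 and 11 counts in the T + E2 mice. Its log2 fold change of 1.75 did not pass (SE 0.63, adjusted p = 0.0892). Without CON mouse 2 it was 3.10 (adjusted p = 0.0143) and without both mouse 2 libraries 2.97 (adjusted p = 0.0476). With 1 mouse left out it ranged from 1.31 to 3.10, with adjusted p values up to 0.238. Cyp1a1 met the count filter through the T + E2 group alone. The closely related Cyp1a2 had no count.

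Per length, the members with the highest means over the 6 mice were Cyp2f2, Cyp2e1, Sult1e1, Cyp3a57 and Cyp27a1, at 60.4, 43.6, 38.5, 28.8 and 18.4 FPKM. This order pools groups that differ, since in the CON group alone Cyp3a57, at 7.90 FPKM, was below Cyp20a1, at 15.1 FPKM, and the mean of Cyp2e1 rested on CON mouse 2. Cyp20a1, Cyp2b10, Cyp2j6, Cyp4f17 and Sult5a1 followed at 7.96 to 13.2 FPKM. Of these 10, only Sult1e1, Cyp3a57 and Sult5a1 passed both thresholds. Cyp2f2, which is best known from the airway epithelium, had 44.8, 69.2 and 52.2 FPKM in the CON and 48.8, 72.8 and 74.7 FPKM in the T + E2 mice, and its log2 fold change of 0.27 did not pass the test (SE 0.19, adjusted p = 0.345).

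**Figure D3:**
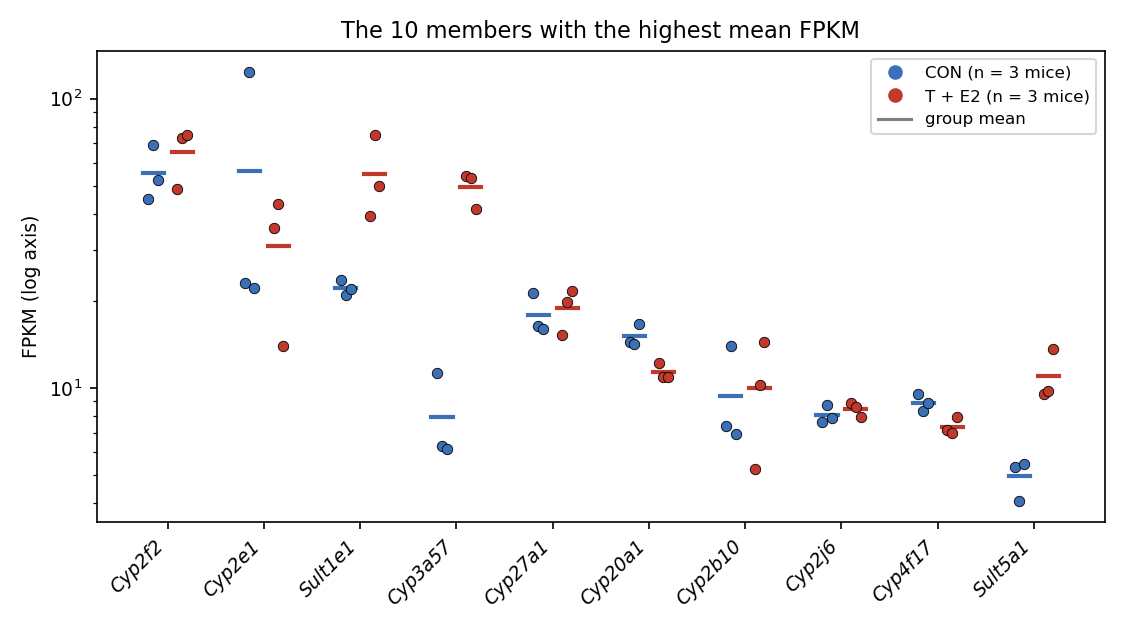
FPKM (vertical log axis) of the 10 members with the highest mean over the 6 mice, with CON mice in blue, T + E2 mice in red and a bar at each group mean. Cyp3a57, Sult1e1 and Sult5a1 separate upwards, while Cyp2e1 has a single high CON value of 123 FPKM that sets its group mean.

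Cyp2e1, which oxidises ethanol and is abundant in liver and fat, varied between mice more than between groups. It had 41.3, 220 and 40.8 CPM in the CON and 68.1, 79.4 and 25.3 CPM in the T + E2 mice, and the highest value was in CON mouse 2, the library with 707 CPM of fat markers. Its log2 fold change was -0.80 (SE 0.69, adjusted p = 0.446), 0.49 without CON mouse 2 and 0.18 without both mouse 2 libraries, so its direction rested on that library. Cyp27a1, the mitochondrial sterol hydroxylase, had 65.10, 49.48 and 49.98 CPM against 49.5, 62.3 and 66.5 CPM, a log2 fold change of 0.12 (SE 0.15, adjusted p = 0.628). Cyp20a1, an orphan P450, had 33.2, 32.5 and 39.2 CPM in the CON and 30.0, 25.6 and 25.3 CPM in the T + E2 mice, and its log2 fold change of -0.37 was just outside the threshold (SE 0.12, adjusted p = 0.0559). For Cyp2b10, Cyp2j6 and Cyp4f17 the log2 fold changes were 0.12, 0.10 and -0.24 (adjusted p = 0.851, 0.505 and 0.191).

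The P450 genes of sterol, bile acid and steroid synthesis gave no call. Of the 11 listed, 4 were tested and none passed. Cyp7b1, which hydroxylates dehydroepiandrosterone and androstanediols and is known from the prostate, had 8.74, 6.44 and 7.73 CPM in the CON and 9.48, 9.25 and 7.94 CPM in the T + E2 mice, a log2 fold change of 0.22 (SE 0.17, adjusted p = 0.393). Cyp11a1, which starts steroid synthesis by cleaving the side chain of cholesterol, had 10, 4 and 6 counts in the CON and 0, 2 and 0 counts in the T + E2 mice. The 20 counts against 2 give a level 9.92-fold higher in the CON group, with a 95% interval of 2.41 to 87.6 that covers counting error only, and the fit without a filter did not pass it (adjusted p = 0.0692). Cyp21a1, a steroid hydroxylase of the adrenal, had 4 counts in T + E2 mouse 2 and none elsewhere. Neither of the 2 tested genes of vitamin D and retinoic acid metabolism passed.

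Other members lay near the limit of detection. Cyp2t4 had 5 counts over the CON mice and 1 over the T + E2 mice, a ratio of 4.96 (95% interval 0.555 to 235), and Sult1d1 had 2 counts over the CON mice and 8 over the T + E2 mice, a ratio of 4.03 (95% interval 0.804 to 39.0). Both intervals include 1. Cyp4f15, added here after its values were seen, had 0, 20 and 1 counts in the CON and 6, 45 and 7 counts in the T + E2 mice, with the highest value of each group in its mouse 2, the libraries with seminal vesicle transcripts. In the fit without a filter its adjusted p was 0.466.

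Many members lie side by side in the genome, since these families grew by local duplication. Members no more than 500000 bases apart formed 43 groups, of which 11 held 3 or more. The group at chr5:86889767-87591594 holds 13 members, in the order Ugt2b34, Ugt2b1, Ugt2b35, Ugt2b36, Ugt2b5, Ugt2b37, Ugt2a3, Ugt2b38, Ugt2a1, Ugt2a2, Sult1b1, Sult1d1 and Sult1e1. Of these, 7 had no count in any mouse, 3 were tested and 2 rose, which were Ugt2b35 within the group and Sult1e1 at its end. Sult1b1 between them had 6, 7 and 10 counts in the CON and 1, 3 and 5 counts in the T + E2 mice and was not tested. The genes next to Ugt2b35 on either side, Ugt2b1 and Ugt2b36, were at 0 in all 6 mice.

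**Figure D4:**
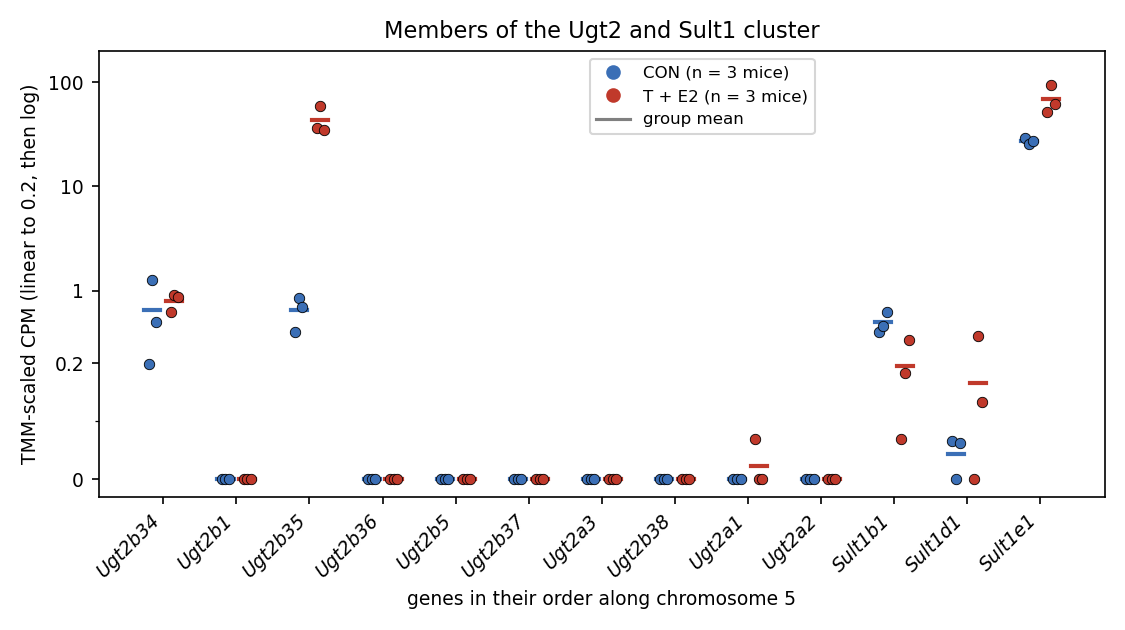
TMM-scaled CPM (vertical axis, linear up to 0.2 and logarithmic above) of the 13 members of the Ugt2 and Sult1 group on chromosome 5, in genomic order, with CON mice in blue, T + E2 mice in red and a bar at each group mean. Ugt2b35 and Sult1e1 separate upwards, and 7 genes lie at 0 in every mouse.

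The share of expressed genes differed between the other groups. In the Cyp3a group at chr5:145345279-146113287, 3 of 6 members were detected and Cyp3a57 alone was tested. Of the 14 Cyp2c genes in their group on chromosome 19, which include the main arachidonic acid and drug oxidising enzymes of liver, 4 were detected, none with more than 3 counts in a mouse. In the Cyp2j group on chromosome 4, 5 of 8 members were detected, 3 were tested and Cyp2j13 rose, and in the group of 13 Cyp2a, Cyp2b and related genes on chromosome 7, 6 were detected, 4 were tested and Cyp2b19 rose. In the Cyp4f group on chromosome 17, 6 of 8 members were detected, 3 were tested and none passed. The group of 7 that holds Cyp4x1 on chromosome 4 had 2 tested genes, of which Cyp4b1, named here after its values were seen, had a log2 fold change of -0.15 (adjusted p = 0.633).

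The enzymes depend on partners that supply electrons, UDP-glucuronic acid and the sulfate donor PAPS, and on receptors that control their genes. Of 67 listed partner genes 66 were in the table and 58 were tested, of which 4 were upregulated and 1 was downregulated, where 4.27% and 3.38% of all tested genes were. By adjusted p alone 10 were higher and 2 lower in the T + E2 group, where 10.4% and 9.25% of all tested genes were. Among the 11 tested genes of the electron donor list only Pgrmc1, a haem-binding membrane protein, passed, with a log2 fold change of 0.55 (adjusted p = 0.00318). The tested reductase, cytochrome b5 and ferredoxin genes of that list did not pass. Por, added here after its values were seen, had 189, 183 and 169 CPM in the CON and 160, 160 and 216 CPM in the T + E2 mice, a log2 fold change of -0.01 (SE 0.13, adjusted p = 0.958). Of the 6 tested genes of UDP-sugar supply and turnover only Gusb, the lysosomal glucuronidase that removes glucuronic acid, passed, at 0.48 (adjusted p = 0.00798).

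The 2 genes that make PAPS moved in opposite directions, neither past the size threshold. Papss1 had 111, 129 and 133 CPM in the CON and 173, 184 and 176 CPM in the T + E2 mice, a log2 fold change of 0.51 (SE 0.10, adjusted p = 0.00866). Papss2 had 327, 439 and 328 CPM against 209, 169 and 259 CPM, a log2 fold change of -0.78 (SE 0.18, adjusted p = 0.0205). The other 4 tested genes of the sulfate list did not pass.

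Of the 15 tested receptors and regulators, Tiparp and Vdr were upregulated and Rxrg was downregulated. Tiparp, which is induced by and represses the aryl hydrocarbon receptor, had 27.0, 14.5 and 12.4 CPM in the CON and 127, 130 and 92.6 CPM in the T + E2 mice, a log2 fold change of 2.70 (SE 0.29, adjusted p = 0.000665). Vdr, the vitamin D receptor, had 11.66, 9.003 and 10.81 CPM against 31.8, 42.4 and 50.1 CPM, a log2 fold change of 1.98 (SE 0.18, adjusted p = 0.000322). Rxrg, a retinoid X receptor, had 12.1, 15.1 and 14.1 CPM against 5.67, 6.51 and 4.14 CPM, a log2 fold change of -1.33 (SE 0.19, adjusted p = 0.00275). The aryl hydrocarbon receptor gene Ahr and the oxysterol receptor gene Nr1h3, named after its values were seen, passed by adjusted p alone, at 0.62 and 0.59 (adjusted p = 0.0191 and 0.0477). Nr1i2, the xenobiotic receptor PXR and a regulator of Cyp3a genes in liver, was too low to be tested, with no count in the CON mice and 4, 9 and 6 counts in the T + E2 mice, and was added here after its values were seen. Of 20 tested other oxidising and conjugating enzymes, the flavin monooxygenase Fmo5 was upregulated at 1.95 (adjusted p = 0.000105) and the carboxylesterase Ces2e at 1.01 (adjusted p = 0.0108), while Cbr3 was higher at 0.56 (adjusted p = 0.00977).

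**Figure D5:**
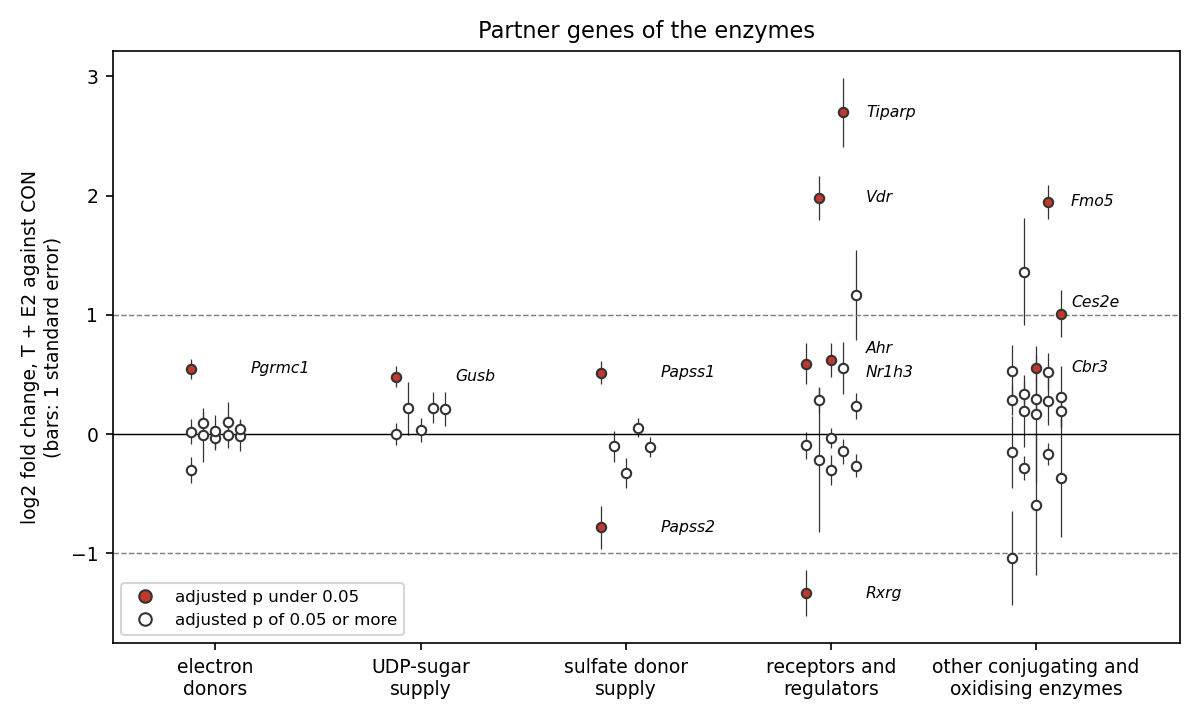
Log2 fold change, T + E2 against CON (vertical axis, 3 mice a group, bars of 1 standard error), of the 58 tested partner genes by list, with named points for those with an adjusted p under 0.05. Pgrmc1 is the only gene of the electron donor list with a filled point, and Tiparp at 2.70 is the highest point of the receptor list.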

How the data were processed

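The authors deposited 1 table with, for each mouse, whole-number counts of reads per gene without normalization and FPKM values, which equal the count divided by gene length and library total. Per the labels, TopHat, Bowtie2 and HTSeq were used; versions, annotation, build and strand setting are not given in the sources used here. Coordinates overlap build GRCm38 (GENCODE M21, which holds all 133 members, 101 with identical ends). All value columns belong to 1 of the 6 mice, 0 were left unused, and replicates were separate animals.

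The group comparison used edgeR 4.0.16 (R 4.3.3) on the counts: filterByExpr (minimum count 10, minimum total 15), TMM scaling, glmQLFit and glmQLFTest over 15580 genes with Benjamini-Hochberg adjustment. Up- and downregulated genes had an adjusted p under 0.05 and a log2 fold change over 1 or under -1. The SE of a log2 fold change is its size divided by the root of F. Pairs of mice within a group differed beyond sampling noise (chi-square per degree of freedom 17.8 to 39.0). With 3 mice a group, an exact permutation test cannot give a p below 0.1. The method was tested on simulated data.

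Named were members past both thresholds, up to 6 past adjusted p alone, the 10 highest by mean FPKM, listed steroid-modifying members over 3 counts in a mouse, members over 3 counts in 1 group and at most 3 in every mouse of the other, and up to 4 genes per partner list past adjusted p. A partner gene is not reported here. Levels at 0 were bounded by 3 counts over the group. Members, lists and rules were chosen with earlier results of these data known. Similar transcripts came from BLAST+ 2.17.0+ (90% identity over at least 100 bases), promoters from RefSeq, with an entry for 106 members, and figures from matplotlib 3.10.9. Alternatives were DESeq2 1.42.0, limma 3.58.1 on log2(FPKM + 0.1) and log2(FPKM + 1), other scalings, filters and thresholds, a replicate block, summed similar members, and fits that left out mice.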

Additional observations from a re-analysis of the deposited data

How the results depend on the processing

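Of the members, 8 were upregulated with median-of-ratios scaling, DESeq2 and limma on log2(FPKM + 0.1), although the last 2 settings shared 7 of them with the reported 8, with Cyp3a25 in place of Cyp2b19. The number was 7 with library totals alone and with a filter at an FPKM of 1 in 3 samples, and 9 with no filter on low counts. The number moved to 4 with limma on log2(FPKM + 1), in which small values are compressed by construction, to 5 at an adjusted p under 0.01, and to 5 without both mouse 2 libraries, an alternative chosen after seeing the data, in which 4 of the 8 were left and Cyp1a1 was added. With 1 mouse left out it ranged from 5 to 7, the lowest being without T + E2 mouse 2, and Cyp2b19 was lost each time. By adjusted p alone it was 10. The downregulated gene Cyp4x1 moved to a count of 0 with the FPKM filter, where it was not tested, with limma on log2(FPKM + 1) and at an adjusted p under 0.01, and the count stayed at 1 in all other settings, including each fit with 1 mouse left out.

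Directions turned only in members that passed no test. Cyp2e1 went from -0.80 to 0.49 without CON mouse 2 (range -1.18 to 0.49 with 1 mouse left out) and to 0.18 without both mouse 2 libraries. With 1 mouse left out, Cyp2b10 ranged from -0.22 to 0.50, Ugt1a7c from -0.67 to 0.31 and Ugt2b34 from -0.12 to 1.17, and Ugt1a7c became 0.28 when summed with the other Ugt1a genes. The cause was not tested. Of the values under an alternative, 353 kept direction and side of the threshold, 23 lost the call, 2 gained it and 10 reversed. The 353 include the FPKM sums of the Cyp, Ugt and Sult genes, which had no call. A call here means both thresholds, so a loss of adjusted p alone, as for Cyp2s1 and Cyp1b1, was not counted.

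Replicate numbers were shared between groups, but same-numbered mice were different animals, and their deviations correlated at -0.05, 0.03 and 0.05, with no CON mouse correlating best with its own number. With a replicate block 7 members were upregulated, without Cyp2b19, and 1 was downregulated; for all genes the numbers were 598 and 415, against 665 and 526. Cyp2s1 and Cyp1b1 then had an adjusted p of 0.0686 and 0.0864. Over all genes the upregulated and downregulated numbers were 365 and 196 with limma on log2(FPKM + 1) and 1620 and 1441 by adjusted p alone, and the downregulated number was 344 with the FPKM filter, 298 without both mouse 2 libraries and 276 at an adjusted p under 0.01. The upregulated number over all genes was 715 with DESeq2, 662 with limma on log2(FPKM + 0.1) and 622 with library totals alone. It was 508 with the FPKM filter, 747 with no filter on low counts and 481 at an adjusted p under 0.01. Without both mouse 2 libraries it was 511, and with 1 mouse left out it ranged from 553 to 718.

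At these depths 3 counts were worth 0.183 to 0.208 CPM, so the 60 members at 0 and the 34 below the filter are described by their counts only.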
